A study of Homo sapiens with 9 samples.

Results

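Contractile and smooth muscle actin genes were followed in OVCA433, an established human ovarian cancer cell line, after knockdown of MPZL3, an immunoglobulin-containing transmembrane protein. The 10 genes, ACTA2, ACTG2, TAGLN, MYL9, CNN1, TPM1, TPM2, CALD1, MYLK and DPYSL3, were taken by symbol from a table of 58676 genes, whatever their values. Cells carried an shRNA control vector, MPZL3 shRNA hairpin #1 or MPZL3 shRNA hairpin #3, each with 3 biological replicate libraries marked A, B and C, so there were 9 libraries in 3 groups. The labels give the control cells as wild type, and the methods of the study name both an empty and a scrambled vector for it, so that effects of expressing any hairpin cannot be told apart from those of the knockdown. Vectors were delivered by lentivirus to the same line, and the hairpins target different sequences of the same transcript. The question addressed by the design is how the transcriptome of these cells changes when MPZL3 is reduced.

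Library totals ranged from 16850854 to 23890191 counts. Values are given in CPM, a gene's count relative to the size of its library after TMM adjustment (trimmed mean of M values). MPZL3 was at 19.5 ± 3.42 CPM in control, at 1.89 ± 0.0927 CPM with hairpin #1 and at 1.57 ± 0.514 CPM with hairpin #3 (SD, n = 3 each), or 9.66% and 8.07% of control. A gene was called at a Benjamini-Hochberg adjusted p-value under 0.05 in edgeR's quasi-likelihood test, over 15975 tested genes, together with a log2 fold change of 1 or more in either direction, and "rose" and "fell" are used only for such calls. Mitochondrial transcripts held 2.75% to 4.01% of the counts and were lowest in library A of each group, a letter that the labels do not explain. Library A was also the lowest of its group for MYL9, TPM1 and TPM2 and the highest for DPYSL3 in all 3 groups, and the part of this in the results was not tested. Following the grouping of the study, both hairpins were compared with control as 1 knockdown arm of 6 libraries, and each hairpin was also compared on its own in a model with 3 groups.

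In cells that contract, myosin II motors pull on actin filaments, and the motor is switched on when its regulatory light chain is phosphorylated by a calmodulin-dependent kinase. Tropomyosin, caldesmon, calponin and transgelin lie along the actin filament and set its stability and its access to myosin. Smooth muscle cells, and myofibroblasts in wounds, fibrosis and tumor stroma, use dedicated isoforms of these proteins, many of them encoded by targets of serum response factor (SRF), which binds a DNA element called the CArG box. Epithelial cells that acquire mesenchymal properties can also express part of this set.

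MYLK, DPYSL3, ACTA2 and CNN1 rose in the pooled comparison, and no member fell by edgeR or by DESeq2, nor was any lower at an unadjusted p under 0.05. These were 4 of the 9 members that were tested, where 7.26% of all tested genes were called higher. CNN1 was among the tested genes only through its counts in the hairpin #3 libraries, where it was high, so its calls add no support to these counts. All 9 tested members had a fold change above 0, with a median log2 fold change of 0.88 against 0.00 over all tested genes. At the adjusted p alone 5 members were higher, the fifth being MYL9, against 15.9% of all tested genes. With hairpin #1 the same 4 genes were called higher than control (7.76% of all tested genes), of which CNN1 could be tested only because the hairpin #3 libraries were in the fit, and 7 members passed the adjusted p alone (18% of all tested genes). With hairpin #3 5 members rose, the additional one being MYL9 (7.46% of all tested genes), and 5 passed the adjusted p alone (16.6% of all tested genes). The median log2 fold change of the tested members was 0.91 with hairpin #1 and 1.11 with hairpin #3, and 0.00 over all tested genes in each of these comparisons. Both hairpins were compared with the same 3 control libraries, and the members had been chosen with earlier results of these data known, so these counts describe the members and are no independent evidence of a direction.

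**Figure D1:**
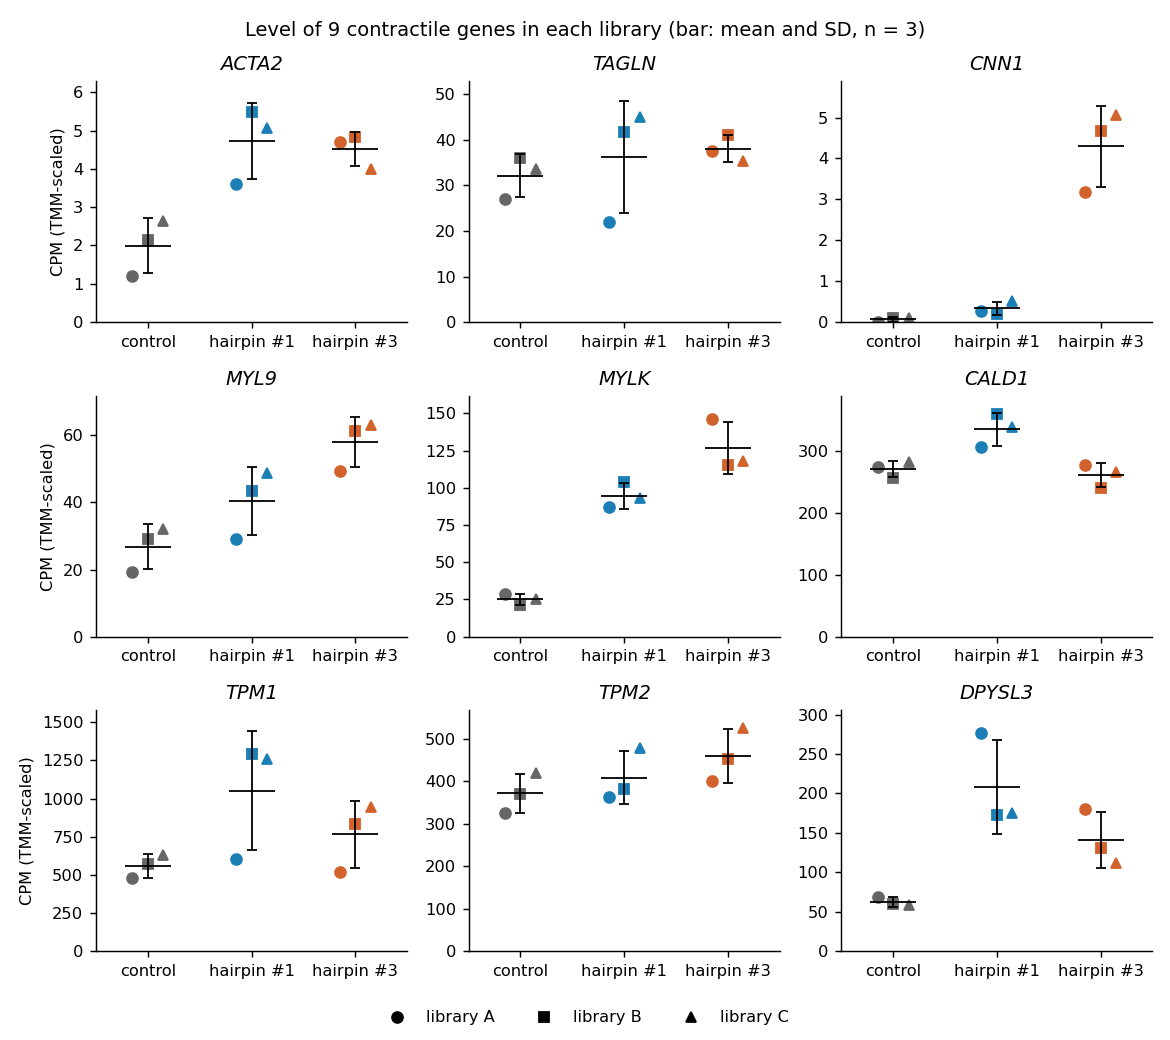
CPM (TMM-scaled, linear axes from 0) of the 9 tested members in each library, with circles, squares and triangles for libraries A, B and C and bars for the mean and SD of 3 libraries. MYLK, DPYSL3, ACTA2 and CNN1 lay above all control libraries in 6 of 6 knockdown libraries. MYL9 did so in 5, TPM1 and TAGLN in 4, and TPM2 and CALD1 in 3, those of CALD1 being the hairpin #1 libraries. Some related genes that were not called also lay above control in 6 of 6, and the share over all tested genes was not computed. Such counts, here and in the text, therefore only describe the genes named.

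Levels between genes were compared as CPM per kilobase of the gene length in the deposited table. In control cells TPM2, at 91.8 ± 11.5 CPM per kb, was the highest member and stood at percentile 97.6 of the tested genes. TPM1 followed at 44.9 ± 6.20 CPM per kb and CALD1 at 27.5 ± 1.31 CPM per kb. MYL9, DPYSL3 and TAGLN were close together, at 9.50 ± 2.37, 8.74 ± 0.830 and 8.21 ± 1.19 CPM per kb, and these neighbours in the order did not differ beyond their spread. MYLK was at 1.14 ± 0.167 CPM per kb and ACTA2 at 0.658 ± 0.238 CPM per kb, both under the median of 3.90 CPM per kb over all tested genes. CNN1, at 0.0225 ± 0.0195 CPM per kb, was at percentile 1.01 (SD, n = 3 in each case). The gene length counts every exon of all isoforms, which understates long genes with many isoforms such as MYLK (22167 bases) and TPM1 (12492 bases). With hairpin #1 DPYSL3 stood at percentile 90.6 and MYLK at percentile 52.5, and with hairpin #3 they stood at percentiles 85.2 and 59.5.

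The actin isoforms come first. ACTA2 (ENSG00000107796, GRCh38 chr10:88935074-88991390, minus strand) encodes smooth muscle alpha-actin, the isoform used to recognise myofibroblasts. Its level was 1.21, 2.14 and 2.63 CPM in control libraries A, B and C. It was 3.60, 5.49 and 5.06 CPM with hairpin #1, and 4.71, 4.83 and 4.005 CPM with hairpin #3. All 6 knockdown libraries lay above all 3 control libraries, and the hairpins overlapped each other. ACTA2 rose 2.37 times with hairpin #1 and 2.26 times with hairpin #3 as ratios of mean CPM, and in the pooled comparison by 1.21 ± 0.25 on the log2 scale (SE, adjusted p = 0.00281). Control A was the lowest of the 9 libraries, and without it the pooled log2 fold change was 0.95, under the fold threshold. The same library ended the call with each hairpin (0.98 and 0.92), and without all 3 A libraries the value with hairpin #3 was 0.89. These levels rest on 123 counts over the control libraries, 303 with hairpin #1 and 255 with hairpin #3.

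Part of the ACTA2 reading has a limit set by its locus. Exons of FAS, a death receptor gene on the opposite strand, overlap ACTA2 exons over 380 bases, and the libraries kept no strand. FAS was at 36.7 ± 0.514 CPM in control, 21.6 ± 3.17 CPM with hairpin #1 and 26.9 ± 2.81 CPM with hairpin #3 (SD, n = 3), lower where ACTA2 was higher. The antisense gene ACTA2-AS1 had 14 counts in all 9 libraries.

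ACTG2 (ENSG00000163017, chr2:73892314-73919865, plus strand) encodes smooth muscle gamma-actin, which belongs to visceral smooth muscle. It had 1 count in control library B, 1 in hairpin #3 library C and 0 in the other libraries, and did not pass the filter on low counts. A count of 0 to 1 per library cannot show a difference at this depth.

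The nonmuscle actins were far more abundant. ACTB was at 6396 ± 415 CPM in control, 6924 ± 780 CPM with hairpin #1 and 6084 ± 228 CPM with hairpin #3, with a pooled log2 fold change of 0.02 (95% interval -0.21 to 0.26). ACTG1 had a pooled log2 fold change of 0.03 (-0.22 to 0.27). Per kb, ACTB held 59.2% and ACTG1 40.8% of the signal of 6 actin genes in control cells. ACTA2 held 0.0195% ± 0.00575 of that signal in control, 0.0439% ± 0.00903 with hairpin #1 and 0.0468% ± 0.00711 with hairpin #3 (SD, n = 3), and the range of each hairpin lay above the control range. ACTA2 thus remained a minor actin transcript in every library. Actin paralogs share much of their sequence, and the treatment of reads that match more than 1 of them is not stated in the sources used here.

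The regulatory light chain and its kinase are the switch of the motor. MYLK (ENSG00000065534, chr3:123610049-123884331, minus strand) encodes myosin light chain kinase and was the member with the smallest adjusted p in the pooled comparison. It was at 28.9, 21.4 and 25.3 CPM in control libraries A, B and C. With hairpin #1 it was at 86.9, 104 and 92.9 CPM, and with hairpin #3 at 146, 116 and 118 CPM. None of the 3 groups overlapped another. MYLK rose 3.76 times with hairpin #1 and 5.03 times with hairpin #3, and in the pooled comparison by 2.13 ± 0.17 on the log2 scale (SE, adjusted p = 2.09e-06). It remained called in all 20 alternative settings of the pooled comparison, with log2 fold changes from 2.02 to 2.24.

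MYLK makes a long kinase, a short kinase and telokin, a small protein without kinase activity that is transcribed from a start near the end of the gene. Counts per gene do not separate them. The only MYLK promoter window among the RefSeq windows used here (GRCh38.p14, 250 bases before to 50 bases after a start site) is at such an internal start, 10499 bases from the 3′ end of the gene, and is printed below because it was 1 of 2 windows among 14 windows of 8 members that held a CArG box. The other was that of ACTG2. Each is written 5′ to 3′ on the strand of its gene, with the CArG boxes in capitals.
MYLK, chr3:123620499-123620798, minus strand: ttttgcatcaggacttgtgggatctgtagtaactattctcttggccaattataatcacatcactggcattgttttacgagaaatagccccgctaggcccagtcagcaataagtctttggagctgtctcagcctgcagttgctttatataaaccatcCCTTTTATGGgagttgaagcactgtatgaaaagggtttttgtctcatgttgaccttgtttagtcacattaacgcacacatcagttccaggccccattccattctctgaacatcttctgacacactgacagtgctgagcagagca
ACTG2, chr2:73892758-73893057, plus strand: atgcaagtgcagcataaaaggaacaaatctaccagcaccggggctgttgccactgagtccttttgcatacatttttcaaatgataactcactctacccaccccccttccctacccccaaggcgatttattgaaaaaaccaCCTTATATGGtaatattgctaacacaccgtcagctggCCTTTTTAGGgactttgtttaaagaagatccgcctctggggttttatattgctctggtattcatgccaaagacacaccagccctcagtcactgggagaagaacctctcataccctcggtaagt

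The box of the MYLK window lay 94 to 85 bases before the start, and the boxes of the ACTG2 window lay 110 to 101 and 73 to 64 bases before it. The CArG box was searched on both strands in its exact form only, CC, then only A or T bases, then GG. In this form it was present in 1.29% of 35116 promoter windows of the same length. The remaining 12 windows held no such exact box in these bases. Among them were those of ACTA2, CNN1 and DPYSL3, which rose, and those of TPM1, TPM2 and CALD1, which were not called. Boxes with any other base were not searched for, so the search cannot show that these windows lack them. TAGLN and MYL9 had no matching entry. The MYLK window thus belonged to the member with the smallest adjusted p, and the ACTG2 window to the member with 2 counts in all libraries.

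MYL9 (ENSG00000101335, chr20:36541484-36551447, plus strand) encodes the smooth muscle form of the regulatory light chain, a substrate of the kinase. It was at 19.3, 29.1 and 32.1 CPM in control libraries A, B and C. It was at 29.2, 43.4 and 48.9 CPM with hairpin #1 and at 49.4, 61.4 and 63.1 CPM with hairpin #3. Hairpin #1 overlapped the control range and hairpin #3 lay above it, and library A was the lowest in each group. MYL9 rose with hairpin #3 (log2 fold change 1.11 ± 0.20, adjusted p = 0.000744) and had a log2 fold change of 0.60 ± 0.20 with hairpin #1 (adjusted p = 0.0327), under the fold threshold. The pooled value was 0.88 ± 0.23 (adjusted p = 0.0123), also under it. Leaving out control C brought the pooled value to 1.02, past both thresholds, and leaving out control A brought the hairpin #3 value to 0.92, under the fold threshold. The call of this gene therefore depended on single control libraries.

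Among 3 regulatory light chain genes compared per kb, MYL9 held 5.41% ± 1.08 in control, 7.21% ± 0.759 with hairpin #1 and 12.3% ± 0.674 with hairpin #3. MYL12B, a nonmuscle light chain, held 81.1% ± 1.56, 80.8% ± 1.57 and 76.0% ± 0.805 in the same order (SD, n = 3). MYL12A, the other nonmuscle form, held 13.5% ± 0.676, 12.0% ± 0.830 and 11.7% ± 0.919. MYL9 was the smallest share in all control and hairpin #1 libraries, and with hairpin #3 it was above MYL12A in libraries B (12.9% against 11.6%) and C (12.2% against 10.8%). No test was run on these shares. PPP1R14A, which encodes an inhibitor of the phosphatase that removes phosphate from the light chain, was singled out after its values were seen. It was at 2.03, 1.79 and 2.82 CPM in control libraries A, B and C, at 1.40, 1.12 and 2.57 CPM with hairpin #1 and at 0.353, 0.220 and 0.276 CPM with hairpin #3. It fell with hairpin #3 (log2 fold change -2.95 ± 0.43, adjusted p = 0.000123), opposite to MYL9 and MYLK, and was not called with hairpin #1 (-0.37 ± 0.33, adjusted p = 0.413).

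The proteins that line the actin filament differed among themselves. TPM1 (ENSG00000140416, chr15:63042632-63071915, plus strand) encodes alpha-tropomyosin. It was at 478, 570 and 632 CPM in control libraries A, B and C, at 601, 1292 and 1260 CPM with hairpin #1, and at 521, 831 and 947 CPM with hairpin #3. In each knockdown group library A stayed within the control range, while B and C lay above it. TPM1 was not called in the pooled comparison (log2 fold change 0.70 ± 0.27, adjusted p = 0.0686). Over 20 alternative settings the pooled log2 fold change was 0.568 to 0.859 and never passed both thresholds. The adjusted p lay on both sides of 0.05, for example at 0.0221 by DESeq2 and at 0.205 in edgeR without control A. With hairpin #1 the log2 fold change was 0.91 ± 0.26 (adjusted p = 0.0151), under the fold threshold. It was 1.19 without hairpin #1 library A, 1.00 without control C and 1.10 without the 3 A libraries, each past both thresholds. The exons of TPM1-AS overlap those of TPM1 on the opposite strand over 2070 bases, and TPM1-AS was at 2.30 to 2.94 CPM as group means.

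TPM2 (ENSG00000198467, chr9:35681992-35691020, minus strand), which encodes beta-tropomyosin, ranged from 326 to 419 CPM in control, 363 to 479 CPM with hairpin #1 and 400 to 525 CPM with hairpin #3. The 3 ranges overlapped. It was not called, with a pooled log2 fold change of 0.22 (95% interval -0.06 to 0.51, adjusted p = 0.223). Among 4 tropomyosins per kb, TPM1 held 17.6% ± 1.44 in control, 26.1% ± 8.02 with hairpin #1 and 20.8% ± 4.33 with hairpin #3. TPM2 held 36.0% ± 2.44, 31.8% ± 1.90 and 38.9% ± 1.89. TPM4, a nonmuscle tropomyosin singled out after its values were seen, went from a share of 10.4% ± 0.997 to 5.67% ± 0.115 and 5.59% ± 0.243, with a pooled log2 fold change of -0.64 ± 0.11 (adjusted p = 0.000697) that did not pass the fold threshold.

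CALD1 (ENSG00000122786, chr7:134744252-134970728, plus strand) encodes caldesmon, which has a long smooth muscle form and a short nonmuscle form that counts per gene do not separate. It was at 274, 257 and 282 CPM in control libraries A, B and C. It was at 307, 360 and 339 CPM with hairpin #1 and at 277, 240 and 267 CPM with hairpin #3. The hairpin #1 libraries lay above both other groups, and hairpin #3 overlapped control. The log2 fold change was 0.31 ± 0.10 with hairpin #1 (adjusted p = 0.0255, under the fold threshold) and -0.05 with hairpin #3 (95% interval -0.26 to 0.16).

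CNN1 (ENSG00000130176, chr19:11538717-11550323, plus strand) encodes calponin, a marker of differentiated smooth muscle. It had 0, 2 and 2 counts in control libraries A, B and C. It had 6, 4 and 12 counts with hairpin #1 and 54, 85 and 110 counts with hairpin #3. The hairpin #3 libraries, at 3.18 to 5.06 CPM, lay far above the hairpin #1 libraries, at 0.204 to 0.514 CPM, and the latter lay above control, at 0 to 0.0995 CPM. From summed counts, CNN1 was 67.4 times control with hairpin #3 (exact 95% interval 26 to 249) and 5.27 times control with hairpin #1 (1.79 to 21.0), intervals that cover counting error only. The quasi-likelihood test called CNN1 with hairpin #3 (adjusted p = 1.17e-06), the group through which it passed the filter on low counts. With hairpin #1 the adjusted p was 0.0233, but CNN1 entered that test only because the hairpin #3 libraries carried it past the filter on low counts.

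The call of CNN1 with hairpin #1 rested on few counts. With the 6 libraries of hairpin #1 and control alone CNN1 did not pass the filter and could not be tested, and 3 members were called. Without hairpin #1 library C the adjusted p was 0.104, without control A it was 0.0711 and without the 3 A libraries 0.0548, within a range of 0.0052 to 0.168 over the 19 alternative settings that gave a value. The pooled call (adjusted p = 0.0167) was lost when any 1 of the control libraries was left out, with adjusted p of 0.0637, 0.0579 and 0.0573 without A, B and C, within a range of 6.64e-05 to 0.0681 over 20 settings. The pooled arm held both hairpins, which differed strongly in this gene, and its log2 fold change had an SE of 1.41. With hairpin #3 the call held in all 20 settings. Even there, CNN1 held 0.77% ± 0.235 of the signal of 3 calponin genes per kb, against 0.011% ± 0.0095 in control and 0.0668% ± 0.0303 with hairpin #1.

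TAGLN (ENSG00000149591, chr11:117199321-117204782, plus strand) encodes transgelin, an early marker of smooth muscle. It was at 27.0, 36.0 and 33.5 CPM in control libraries A, B and C. It was at 22.1, 41.6 and 44.9 CPM with hairpin #1 and at 37.6, 41.2 and 35.4 CPM with hairpin #3. Hairpin #1 library A was the lowest of all 9 libraries and hairpin #1 library C the highest, so the groups overlapped. The pooled log2 fold change was 0.21 (95% interval -0.21 to 0.62, adjusted p = 0.444). The interval includes both a fall and a rise. Exons of PCSK7 overlap those of TAGLN on the opposite strand over 446 bases, and PCSK7 was at 38.5 ± 1.94 CPM in control, 31.3 ± 2.42 CPM with hairpin #1 and 28.1 ± 2.26 CPM with hairpin #3. TAGLN2, its nonmuscle relative, held 98.0% of the transgelin signal per kb in control and TAGLN 1.69% ± 0.204.

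DPYSL3 (ENSG00000113657, chr5:147390811-147510056, minus strand) encodes a collapsin response mediator protein (CRMP) that binds cytoskeletal proteins and acts in growth cones and cell migration. It was at 69.4, 59.7 and 58.7 CPM in control libraries A, B and C. It was at 277, 173 and 175 CPM with hairpin #1 and at 180, 130 and 111 CPM with hairpin #3. All knockdown libraries lay above all control libraries, the hairpins overlapped each other, and library A was the highest in each group. DPYSL3 rose 3.33 times with hairpin #1 and 2.25 times with hairpin #3, and the pooled log2 fold change was 1.48 ± 0.24 (adjusted p = 0.000565). Without hairpin #3 library A the value with that hairpin was 0.94, under the fold threshold.

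Some other CRMP genes were also higher in the knockdown libraries. Of the 4 others, 3 were tested and 2 rose in the pooled comparison. DPYSL5 went from 12.2 ± 3.04 CPM to 28.4 ± 5.62 CPM with hairpin #1 and 28.4 ± 5.15 CPM with hairpin #3 (log2 fold change 1.22 ± 0.18, adjusted p = 0.000294). CRMP1 went from 15.8 ± 1.86 CPM to 25.98 ± 4.07 and 39.7 ± 3.47 CPM (1.05 ± 0.21, adjusted p = 0.00189). With hairpin #1 its log2 fold change was 0.72, under the fold threshold. Library A was the lowest of each group for CRMP1, whereas it was the highest for DPYSL3. The share of DPYSL3 among 5 CRMP genes per kb was 37.0% ± 1.22 in control, 51.5% ± 7.69 with hairpin #1 and 41.7% ± 5.29 with hairpin #3, where it overlapped the control range.

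**Figure D2:**
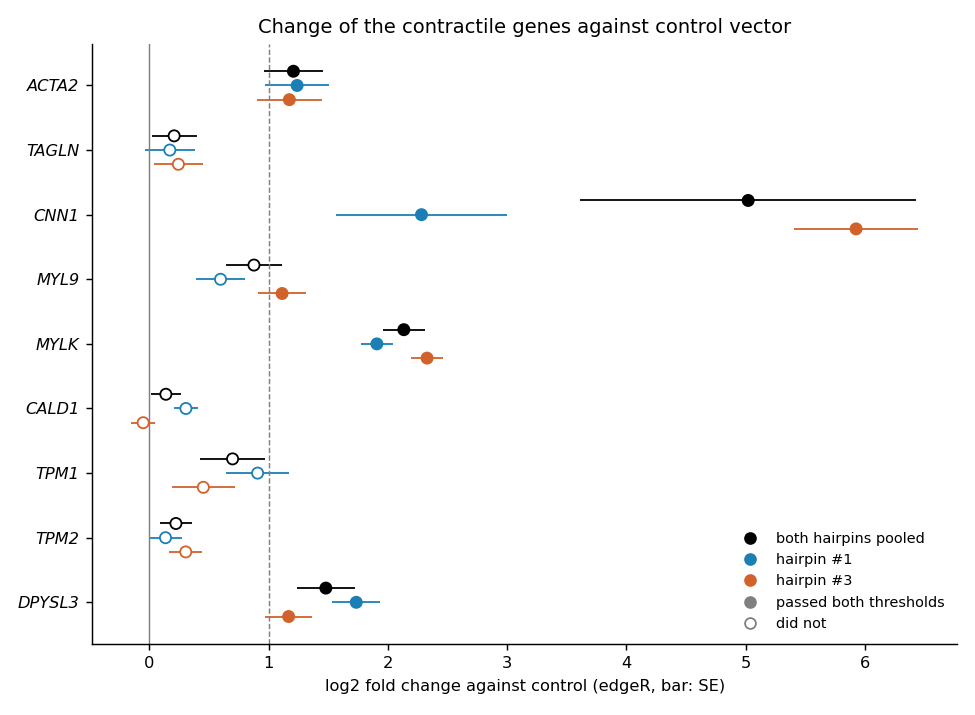
Log2 fold change against control (x axis) of each tested member, with both hairpins pooled (black), with hairpin #1 (blue) and with hairpin #3 (orange), bars giving the SE of the edgeR fit, filled points passing both thresholds and the dashed line at a log2 fold change of 1. ACTA2, MYLK and DPYSL3 passed with each hairpin and MYL9 with hairpin #3, where it was at 1.11, while CNN1 passed with each but was testable with hairpin #1 only through the hairpin #3 libraries.

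**Figure D3:**
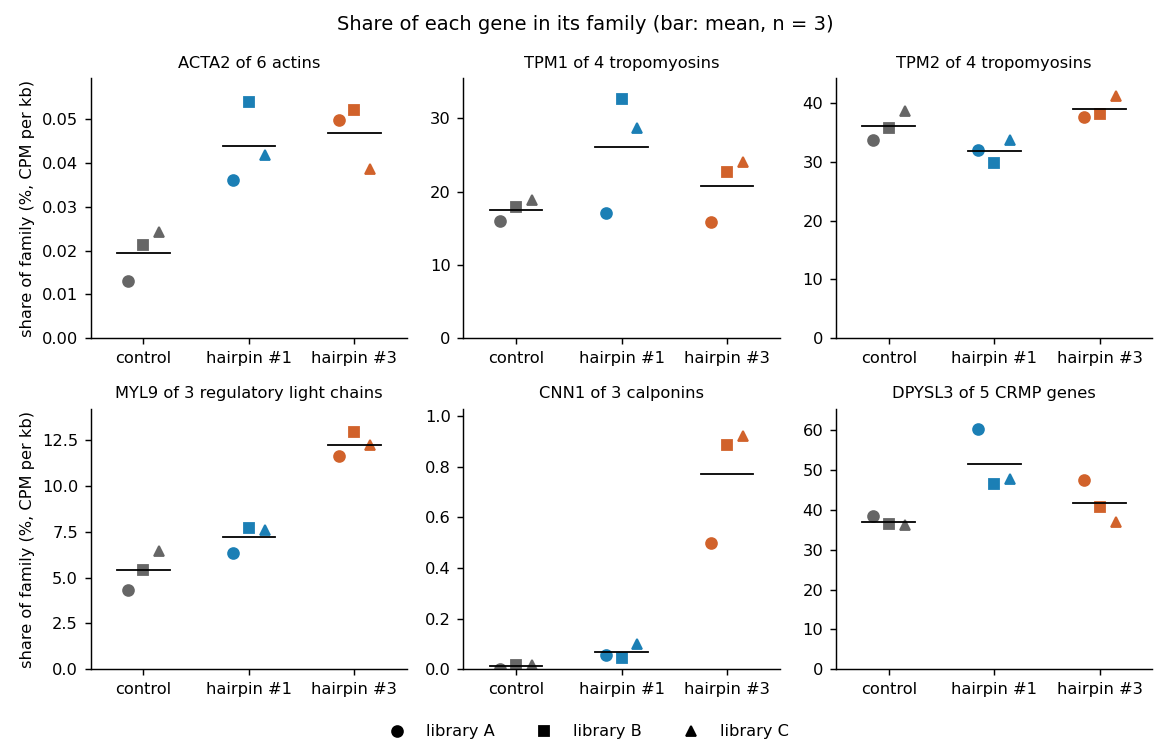
Share (%, linear axes from 0) that 6 members held in the summed CPM per kb of their gene family, for each library (circle A, square B, triangle C) and as the mean of 3 libraries (bar). CNN1 reached 0.923% of the calponins at most and ACTA2 0.0538% of the actins at most, while the range of MYL9 with hairpin #3, from 11.6% to 12.9%, lay above the other groups.

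The hairpins were then compared with each other. Of the 9 tested members, 5 had a higher and 4 a lower fitted value with hairpin #3 than with hairpin #1, with a median log2 difference of 0.07 against -0.01 over all tested genes. CNN1 was called higher with hairpin #3, at a log2 difference of 3.65 ± 0.40 (adjusted p = 7.24e-05), and was the only member called, where 2.22% of all tested genes were called higher. It was tested here only through the hairpin #3 libraries, where it was high. Its ratio of summed counts was 12.8 (exact 95% interval 8.27 to 20.8, counting error only). At the adjusted p alone 2 members were higher with hairpin #3 (6.33% of all tested genes) and 1 was lower (5.3% of all tested genes). These were CNN1 and MYLK, the latter at a log2 difference of 0.42 ± 0.13 (adjusted p = 0.0485), and CALD1, at -0.36 ± 0.10 (adjusted p = 0.0316).

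No other member passed in this comparison. The log2 difference of MYL9 was 0.52 (95% interval 0.09 to 0.95, adjusted p = 0.121) and that of DPYSL3 was -0.57 (-0.99 to -0.15, adjusted p = 0.0801). That of TPM1 was -0.46 (-1.02 to 0.11). For ACTA2 it was -0.07 (-0.61 to 0.48). MPZL3 itself overlapped between the hairpins.

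**Figure D4:**
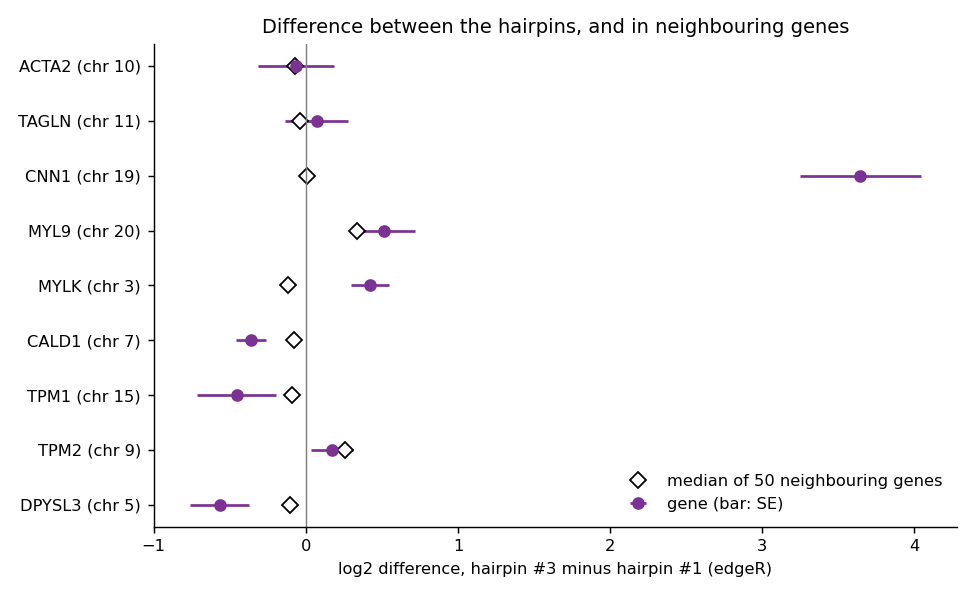
Log2 difference between hairpin #3 and hairpin #1 (x axis) of each tested member (purple, bar for the SE) and the median of 50 neighbouring genes (open diamonds). The neighbours were the nearest 25 genes on either side with a mean of at least 10 CPM. CNN1 stood at 3.65 with neighbours at 0.01, whereas MYL9 at 0.52 and TPM2 at 0.17 lay beside neighbour medians of 0.34 and 0.26.

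Values of neighbouring genes were set beside those of the members, using for each the nearest 25 genes on either side with a mean of at least 10 CPM. Around MYL9 on chromosome 20 neighbours were higher with hairpin #3 than with hairpin #1 by a median log2 difference of 0.34, and 49 of 50 neighbours were above 0. The median over the 280 such genes of the chromosome was 0.33. With hairpin #1 against control these neighbours had a median of -0.26, opposite in sign to MYL9 itself. Around TPM2 on chromosome 9 the median difference between hairpins was 0.26, and 39 of 50 neighbours were above 0. Around TAGLN on chromosome 11 the pooled median was -0.32, and 6 of 50 neighbours were above 0, while TAGLN was at 0.21. For the other 6 tested members the pooled median of the neighbours lay between -0.05 and 0.15. What part the neighbourhood had in the values of MYL9, TPM2 and TAGLN was not tested.

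Genes related to the contractile machinery, and markers of cell types, were examined through 11 lists. These held 89 genes, of which 71 were tested. In the pooled comparison 9 of them rose, 6 fell and 56 were not called. CDH5 and PDGFRB passed the filter on low counts only through the knockdown libraries, where they were high. CDH1 and MUC16 passed it only through the control libraries, where they were high. The calls of these genes therefore add no support to the counts. Over all tested genes 7.26% were called higher and 7.4% lower. Of the 9, 4 were fibroblast and pericyte markers, 2 CRMP genes, 1 an ovarian epithelial marker and 1 a marker of other cell types. Of the 6, 5 were ovarian epithelial markers. No gene was called among the other actin isoforms (2 of 4 tested), among the other tropomyosins, calponins and transgelins (6 of 6 tested), or among SRF and its coactivators (3 of 4 tested). DESeq2 called none of them either. At an unadjusted p under 0.05 edgeR gave 0 actins, 3 lower genes of the tropomyosin, calponin and transgelin list, and 0 of SRF and its coactivators. The median log2 fold changes of these lists were 0.03, -0.24 and -0.12. MYOCD, the muscle-restricted coactivator of SRF, had 0 counts in all 9 libraries, and SRF was at 69.5 ± 4.24 CPM in control, 58.2 ± 3.999 CPM with hairpin #1 and 69.3 ± 4.52 CPM with hairpin #3.

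Among 7 further myosin II genes, all tested, 1 fell. MYH14, a nonmuscle myosin II heavy chain found in epithelia, went from 241 ± 43.8 CPM to 49.7 ± 1.37 CPM with hairpin #1 and 53.7 ± 1.26 CPM with hairpin #3 (log2 fold change -2.22 ± 0.10, adjusted p = 1.42e-08), and was lower in 6 of 6 knockdown libraries. Among 13 crosslinker and focal adhesion genes, all tested, 1 rose. TLN1, which encodes talin, the link between integrins and actin, went from 399 ± 36.0 CPM to 948 ± 39.6 and 908 ± 77.3 CPM (1.22 ± 0.10, adjusted p = 1.72e-06). The medians of these lists were 0.02 and -0.04.

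Markers of cell types were read in the same way. The differentiated smooth muscle list had 10 genes, of which 5 were tested and none called by edgeR or DESeq2, with 2 higher at an unadjusted p under 0.05 in edgeR and a median log2 fold change of 0.30. Its summed level ranged from 164 to 197 CPM in control, 171 to 234 CPM with hairpin #1 and 170 to 184 CPM with hairpin #3. Nearly all of this sum came from CSRP1 and SMTN, at 101 ± 18.9 and 71.7 ± 1.40 CPM in control (SD, n = 3). KCNMB1 was at 0 in all libraries, PLN had 2 counts in the 6 knockdown libraries, and DES, LMOD1 and HSPB6 did not pass the filter on low counts. The list was not uniform between hairpins. SYNM, which encodes the intermediate filament protein synemin and was singled out after its values were seen, was at 0.373 ± 0.101 CPM in control, 1.08 ± 0.218 CPM with hairpin #1 and 0.272 ± 0.123 CPM with hairpin #3. It rose with hairpin #1 (log2 fold change 1.51 ± 0.40, adjusted p = 0.00897) and differed between the hairpins (-1.99 ± 0.43, adjusted p = 0.00886), on 23 counts in control, 69 with hairpin #1 and 15 with hairpin #3. SYNM passed the filter on low counts only through the hairpin #1 libraries, where it was high, so these calls are no independent support.

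Of 9 fibroblast and pericyte markers, 5 were tested and 4 rose, with a median log2 fold change of 2.28. PDGFRB, a receptor of mural and stromal cells, went from 0.555 ± 0.280 CPM to 13.8 ± 5.23 CPM with hairpin #1 and 16.8 ± 3.43 CPM with hairpin #3 (4.78 ± 0.38, adjusted p = 1.84e-06). It was testable only through the knockdown libraries. RGS5, a pericyte marker, went from 1.32 ± 0.399 CPM to 13.9 ± 6.64 and 17.4 ± 7.04 CPM (3.56 ± 0.40, adjusted p = 2.94e-05). FN1, which encodes fibronectin, went from 1593 ± 265 CPM to 8442 ± 4123 and 7047 ± 2095 CPM (2.28 ± 0.31, adjusted p = 0.000124). The defining stromal gene DCN was at 0 in all 9 libraries, and THY1, PDGFRA and FAP did not pass the filter on low counts. The summed level of the list, nearly all FN1, was 1303 to 1813 CPM in control, 4825 to 12950 CPM with hairpin #1 and 5259 to 9367 CPM with hairpin #3.

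Of 7 ovarian epithelial markers, all tested, 5 fell and 1 rose, with a median log2 fold change of -1.41. The summed level was 10250 to 12320 CPM in control, 5219 to 6668 CPM with hairpin #1 and 5157 to 5781 CPM with hairpin #3. CDH1, which encodes E-cadherin, ranged from 270 to 281 CPM in control and from 0 to 0.353 CPM in the 6 knockdown libraries. EPCAM went from 403 ± 23.7 CPM to 5.48 ± 1.25 and 8.93 ± 1.34 CPM. MUC16 ranged from 2.09 to 4.11 CPM in control and had no count in any knockdown library. Both CDH1 and MUC16 were testable only through the control libraries. The keratins of the list kept high levels. KRT7 was not called and was at 2743 ± 666 and 2215 ± 359 CPM after knockdown. KRT8 and KRT18 fell, but KRT8 was still at 2114 ± 209 and 2148 ± 140 CPM and KRT18 at 795 ± 101 and 846 ± 54.8 CPM. The labelled cell type was present by these markers in control cells. In knockdown cells PAX8, its lineage factor, was at 200 ± 12.2 and 207 ± 20.6 CPM against 97.0 ± 16.7 CPM in control, while CDH1 and MUC16 were at or near 0.

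Of 7 markers of immune, endothelial and skeletal muscle cells, 3 were tested and 1 rose. CDH5, an endothelial cadherin, went from 0.0971 ± 0.0475 CPM to 2.29 ± 1.20 and 3.70 ± 1.26 CPM (4.86 ± 0.60, adjusted p = 6.21e-05). It was testable only through the knockdown libraries, where it was high. PECAM1 did not pass the filter on low counts, and MYOD1 and MYOG were at 0 in all libraries. The summed level of this list was 0.796 to 1.21 CPM in control, 2.38 to 4.29 CPM with hairpin #1 and 3.94 to 5.85 CPM with hairpin #3. In these bulk libraries, fewer or more cells of a kind cannot be told apart from less or more RNA per cell, and the part of the marker shifts in the contractile genes was not tested.

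**Figure D5:**
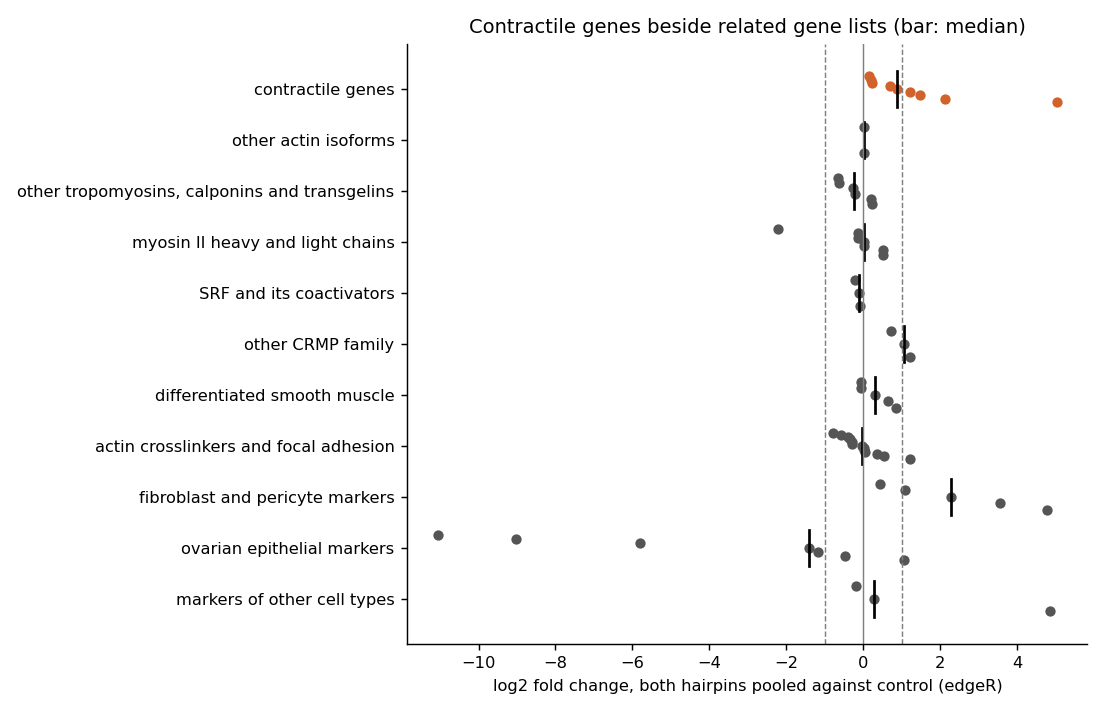
Log2 fold change in the pooled comparison (x axis) of each tested contractile gene (orange) and of each tested gene of 10 related lists (grey, 1 line per list), with bars for the median and dashed lines at -1 and 1. The contractile genes all lay above 0 with a median of 0.88, while the lists of other actins and of SRF and its coactivators centred near 0 and the ovarian epithelial markers at -1.41. Values under -9 belong to genes at or near 0 counts after knockdown, so they mark a direction and not a size.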

How the data were processed

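The deposited table held raw read counts per gene, with no normalization. Per the submitters' processing notes and the study, reads of poly(A)-selected, non-directional libraries were aligned to hg38 with HISAT2 2.0.5 and counted by the authors with featureCounts 1.5.0-p3. The annotation release is not stated in the sources used here. All 58676 gene identifiers were in GENCODE 29, and 95.2% of genes had the same position there. ACTA2 and TPM2 did not. The deposited length of TPM2, used for its levels per kb, was 4047 bases, against 3248 exonic bases in GENCODE 29. Overlaps between exons, such as that of ACTA2 with FAS, were taken from GENCODE 29. Every row carried a gene name.

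Genes were filtered with filterByExpr (minimum count 10, minimum total count 15), which left 15975 genes with 99.889% of the counts. They were tested with edgeR 4.0.16 (TMM, glmQLFit, glmQLFTest, R 4.3.3) without a replicate block, and Benjamini-Hochberg adjustment ran over all tested genes. Biological variation, as edgeR estimates it, was 18.2% (pooled fit) and 13.1% (3-group fit). SEs are the absolute fold change divided by the square root of F, and 95% intervals used the degrees of freedom of the fit. Intervals for CNN1 counts are exact and cover counting error only, since reads without molecular identifiers are not independent molecules. The script was tested on simulated data. Promoter windows are those of RefSeq on GRCh38.p14. MRTFA and MRTFB were found under older symbols, and of 2 rows named RGS5 the one with the lower identifier was used.

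The members, the lists and the tests were chosen with earlier results of these data known. Named were MPZL3, the 10 members, ACTB, ACTG1 and at most 3 called genes per list with the largest pooled change. Genes named for a family share, an overlap, or a level at or near 0 were chosen after their values were seen. So were PAX8, SRF, SYNM, PPP1R14A, SMTN, CSRP1, KRT7, KRT8 and KRT18. Alternatives were other filters and size factors, DESeq2 1.42.0, a replicate block, other thresholds, each library left out, and, added after seeing the data, the B and C libraries alone. The separate result of 1 of the lists is not reported here.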

Additional observations from a re-analysis of the deposited data

Results flagged for a closer look

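For 7 of the named genes the effects of the hairpins differed by a test of the difference itself (edgeR, hairpin #3 minus hairpin #1, adjusted over all tested genes). CNN1 was higher with hairpin #3 by 3.65 on the log2 scale (adjusted p = 7.24e-05), MYLK by 0.421 (adjusted p = 0.0485) and CRMP1 by 0.61 (adjusted p = 0.00907). EPCAM, which was far below control with both hairpins, was higher with hairpin #3 by 0.698 (adjusted p = 0.0128). CALD1 had a difference of -0.358 (adjusted p = 0.0316), with hairpin #1 above control and hairpin #3 within the control range. SYNM had a difference of -1.99 (adjusted p = 0.00886) and PPP1R14A one of -2.58 (adjusted p = 0.00183). CNN1 was tested only through the hairpin #3 libraries and SYNM only through the hairpin #1 libraries, where each was high. Of these, the differences of CNN1, SYNM and PPP1R14A also passed the fold threshold.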

How the results depend on the processing

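MYLK and DPYSL3 were called in the pooled comparison in every setting tried except DPYSL3 with the 2-fold threshold inside the test. That setting left 1 member called in the pooled comparison, 2 with hairpin #1 and 2 with hairpin #3, among 1317, 1539 and 1481 genes, with 206 genes between the hairpins and 9 list genes. With no fold threshold 7 members were called with hairpin #1 and 3 between the hairpins, among 6032 and 1857 genes, with 5269 genes in the pooled comparison, 5536 with hairpin #3 and 29 list genes. When single libraries were left out, 2 to 4 members were called in the pooled comparison, 2 to 5 with hairpin #1 and 3 to 5 with hairpin #3, the lowest values each without control A. Genes under the thresholds changed sign when 1 library was left out. TAGLN ranged from -0.0191 to 0.427 with hairpin #1, and CALD1 from -0.0988 to 0.00168 with hairpin #3. Between the hairpins TAGLN ranged from -0.191 to 0.261 and ACTA2 from -0.233 to 0.0584, and with the B and C libraries alone TAGLN was at -0.177. The causes were not tested. Of 719 alternative values of single members, 680 kept their direction and side of the thresholds, 23 lost the call, 10 gained it and 6 changed sign. The replicate letters are not stated to mark a shared culture, and the main fit did not use them as pairs. Deviations from group means correlated at 0.0373 to 0.361 in the 9 same-letter pairs and at -0.322 to 0.132 in the 18 others. The A libraries correlated with each other at 0.306 to 0.361. They thus shared variation that the main fit left unmodelled. With a replicate block, 4, 4, 5 and 1 members were called in the pooled, hairpin #1, hairpin #3 and between-hairpin comparisons, among 2306, 2675, 2515 and 754 genes, against 2342, 2605, 2443 and 628 without it. Not every B library correlated best with its own letter. The counts of ACTG2 and of CNN1 in control limit what depth can show.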
